A study of Mus musculus with 6 samples.

Results

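Troponin isoforms were examined in quadriceps muscle from 2-month-old C57/Bl6 mice in which Pofut1 was floxed or wild type. The gene encodes an O-fucosyltransferase that modifies Notch receptors and other proteins with EGF-like repeats. The knockout group held 3 samples with skeletal α actin cre and Pofut1 flox/flox alleles. The control group held 3 samples that carried the same cre with wild-type Pofut1. The skeletal α actin promoter is active in muscle fibres, so other cells of the tissue keep the floxed gene. One Affymetrix array was hybridised per sample, with no label stating whether samples were separate animals. The 8 genes described encode the slow isoforms Tnni1, Tnnt1 and Tnnc1, the fast isoforms Tnni2, Tnnt3 and Tnnc2, and the isoforms Tnni3 and Tnnt2, which are known from heart. They were chosen by symbol out of 18194 measured genes, and 12 probe sets were mapped to exactly 1 of them. The brightest probe set of each gene was used.

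Troponin is the calcium switch of the thin filament. Troponin C binds calcium, troponin I blocks the actin-myosin interaction until calcium is bound, and troponin T ties the complex to tropomyosin. Slow-twitch and fast-twitch fibres use different genes for each subunit, except that slow fibres share troponin C with the heart. Mouse quadriceps consists mostly of fast fibres.

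The 3 slow genes had the same low array, as described further on, so their promoters are shown beside that of a fast gene. Promoters of 6 of the 8 genes were matched in the RefSeq table used here, and each sequence runs through the 250 bases upstream of the start site in GRCm38.p6, 5′ to 3′. Capitals mark E-boxes (CANNTG, the letters recognised by myogenic bHLH factors), MCAT elements (CATTCC, recognised by TEAD factors) and TATA letters (TATAA), searched on both strands.
Tnni1 (chr1:135799171-135799420, + strand): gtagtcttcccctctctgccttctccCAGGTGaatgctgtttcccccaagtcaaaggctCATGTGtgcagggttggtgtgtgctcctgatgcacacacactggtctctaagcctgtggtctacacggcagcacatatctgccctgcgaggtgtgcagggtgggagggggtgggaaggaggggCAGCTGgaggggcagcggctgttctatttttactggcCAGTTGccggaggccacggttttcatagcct
Tnnt1 (chr7:4515976-4516225, - strand): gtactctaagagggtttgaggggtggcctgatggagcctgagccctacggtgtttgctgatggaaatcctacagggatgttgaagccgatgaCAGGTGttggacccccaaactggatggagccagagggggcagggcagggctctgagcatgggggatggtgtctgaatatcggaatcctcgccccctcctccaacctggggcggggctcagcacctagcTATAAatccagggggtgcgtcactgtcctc
Tnnc1 (chr14:31208062-31208311, + strand): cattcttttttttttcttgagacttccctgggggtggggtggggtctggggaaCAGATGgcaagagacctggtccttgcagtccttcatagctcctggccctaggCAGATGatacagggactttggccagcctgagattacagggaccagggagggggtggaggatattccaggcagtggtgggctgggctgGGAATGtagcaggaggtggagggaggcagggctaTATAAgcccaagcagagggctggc
Tnnc2 (chr2:164779735-164779984, - strand): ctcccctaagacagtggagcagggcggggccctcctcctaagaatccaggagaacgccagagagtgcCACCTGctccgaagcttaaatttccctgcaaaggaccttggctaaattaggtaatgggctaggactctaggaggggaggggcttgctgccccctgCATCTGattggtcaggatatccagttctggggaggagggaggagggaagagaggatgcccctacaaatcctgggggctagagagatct
The upstream window of Tnni1 held 4 E-boxes and neither of the other motifs, and it is the first of 2 windows listed for that gene. Tnnt1 had 1 E-box and TATA letters whose first base lay at -30 from the start site. Tnnc1 had 2 E-boxes, the only MCAT element of these 4 windows, at -58, and TATA letters at -24. Tnnc2 had 2 E-boxes and neither of the others. No window of the 4 held the MEF2 consensus. Of all 32851 windows of this length in the table, 66.2% held an E-box, 12.6% an MCAT element, 22.8% TATA letters and 2.92% the MEF2 consensus, so most of these matches are common letters. The genes lie partly in pairs. Tnni3 neighbours Tnnt1 on chromosome 7 with 0 protein-coding genes between them, Tnni1 and Tnnt2 are separated on chromosome 1 by Lad1, and Tnni2 and Tnnt3 on chromosome 7 by Lsp1.

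Some arrays stood apart before any comparison. The array labelled control replicate 3 correlated with the other 5 at 0.940 to 0.945 over all genes, against 0.980 to 0.991 among those 5. Its Gapdh 3′ over 5′ intensity ratio was 10.5, that of knockout replicate 2 was 3.70, and the remaining arrays had 1.73 to 1.97. Knockout replicate 2 and control replicate 2 had the female pattern of Xist and the Y-linked Eif2s3y, 1 array in each group. Pofut1 read 194.3 to 231.1 in the knockout, 301.4 in control replicate 1, 379.8 in control replicate 2 and 90.6 in the array labelled control replicate 3, which went against its label. The differences of the troponins and the counts of the gene lists are therefore given with and without that array. A background level of 106.4 was taken from 34 genes listed as restricted to other tissues, of which Cyp2e1 and Krt10 had means above it. Cyp2e1 read 224.3 to 1622, so it was present here. The level lay between Krt10 values of 101.1 and 107.4, so a value just under it need not mean absence. The Pofut1 value of the array labelled control replicate 3 lay under this level.

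Slow troponin I, Tnni1, varied 5.40-fold between arrays without separating the genotypes. Knockout replicates 1 to 3 had intensities of 149.5, 354.8 and 156.1, and control replicates 1 to 3 had 72.2, 197.3 and 390.1. The lowest and the highest array were both controls, and control replicate 1 was the only one under the background level. The log2 fold change, knockout over control, was 0.19 ± 0.64 (SE, n = 3 and 3). Limma gave an adjusted p of 0.980, and the two-sided exact permutation p was 1. Its 95% interval, -1.33 to 1.71, leaves room for changes of either sign.

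Slow troponin T, Tnnt1, had a like order of arrays. It read 539.4, 935.9 and 550.1 in the knockout and 139.7, 618.1 and 1117 in control replicates 1 to 3. Knockout replicates 1 and 3 lay next to each other, while the control values spanned 7.995-fold and enclosed all knockout values. The log2 fold change was 0.51 ± 0.72 (95% interval -1.18 to 2.20), and the p was 0.971 after adjustment in limma and 0.9 by exact permutation.

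Troponin C of slow and cardiac muscle, Tnnc1, had the widest range of the 8 genes, at 13.97-fold. It read 1063, 2128 and 1258 in the knockout and 152.3, 1228 and 1118 in control replicates 1 to 3. Apart from control replicate 1, which was 6.98-fold below the next array, the control values lay among the knockout values. The log2 fold change was 1.26 ± 0.79 (95% interval -0.60 to 3.11), and the p was 0.971 after adjustment in limma and 0.4 by exact permutation.

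Control replicate 1 was thus the lowest array for all 3 slow genes. It lay 2.07-fold below the next lowest array for Tnni1 and 3.86-fold below for Tnnt1. Of all genes, 12.2% had their lowest value in that array. Its correlations with the other arrays, its Gapdh ratio of 1.97 and its male pattern did not set it apart. Without it the log2 fold changes were -0.46 for Tnni1, -0.35 for Tnnt1 and 0.27 for Tnnc1, so the first 2 turned and the last was smaller. With the array labelled control replicate 3 left out instead they were 0.76, 1.15 and 1.71, with limma adjusted p of 0.811, 0.802 and 0.802. In whole tissue, fewer slow fibres and less RNA per slow fibre cannot be told apart.

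The highest slow values lay in the 2 arrays with high Gapdh ratios. For Tnni1 and Tnnt1 the array labelled control replicate 3 was highest and knockout replicate 2 second, and for Tnnc1 knockout replicate 2 was highest while the other lay in the middle. Left out together, these arrays leave a slow minus fast difference between groups of 0.76, and with the ratio as a covariate it was 0.94, against 0.53 with all arrays.

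**Figure D1:**
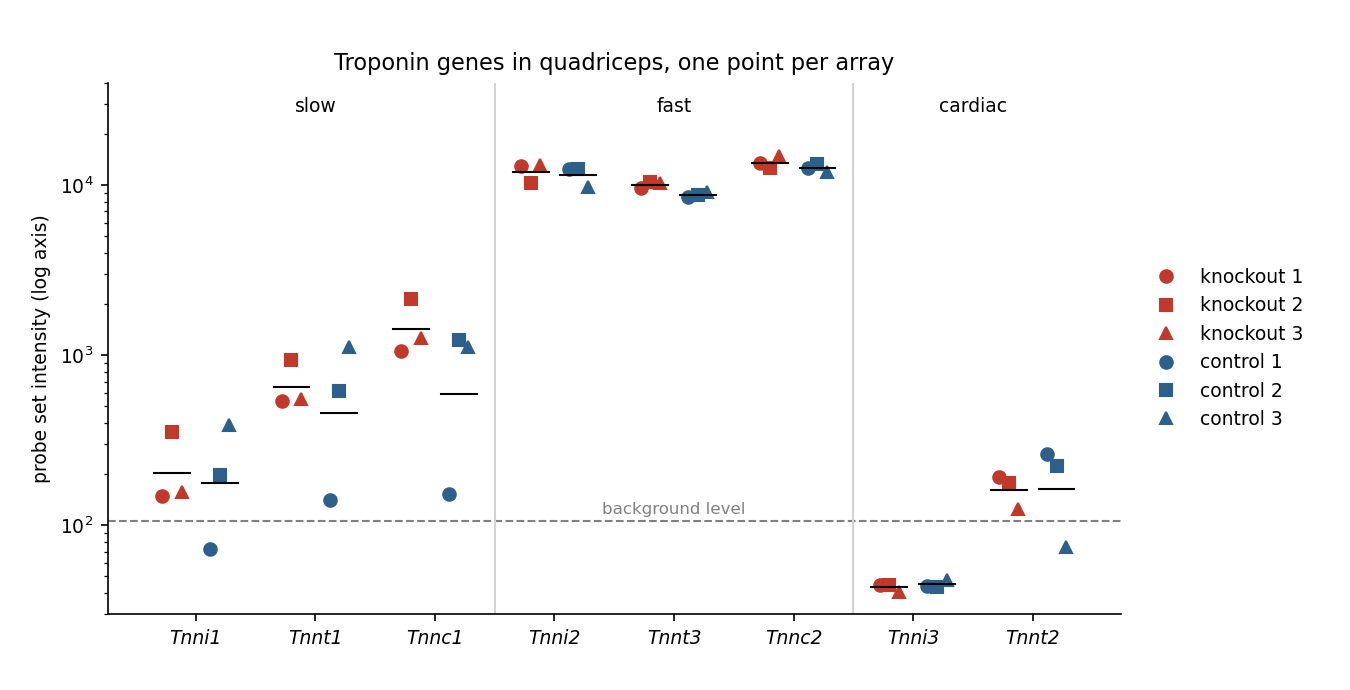
Probe set intensity (log axis) of the 8 troponin genes in each array, knockout in red and control in blue, with bars at the group means of log2 values and a dashed line at the background level of 106.4. Control replicate 1 is the lowest point of Tnni1, Tnnt1 and Tnnc1, the fast genes differ little between arrays, and Tnni3 lies below background in all 6.

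The fast genes were close to even over the 6 arrays. Fast troponin T, Tnnt3, was the only one of the 8 genes whose groups did not overlap. It read 9573, 10367 and 10307 in the knockout and 8560, 8754 and 9112 in control replicates 1 to 3. Every knockout value lay above every control value. The log2 fold change was 0.19 ± 0.08, or 1.14-fold higher in the knockout, with a 95% interval of 0.004 to 0.38. The unadjusted limma p was 0.0462, the adjusted p was 0.971 and the exact permutation p was 0.1, the smallest that 3 against 3 arrays can give. Over all genes 3.33% lay higher in the knockout without overlap, 9.01% lay apart in either direction, and 2.58% had an unadjusted p under 0.05. The share of 1 in 8 members is not a result about troponins against this background. Without the array labelled control replicate 3 the log2 fold change of Tnnt3 was 0.22 (limma adjusted p = 0.802), and without control replicate 1 it was 0.17.

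Fast troponin C, Tnnc2, read 13429, 12654 and 14769 in the knockout and 12687, 13286 and 11949 in control replicates 1 to 3. The groups overlapped, with a log2 fold change of 0.11 ± 0.09 (95% interval -0.11 to 0.32) and a limma adjusted p of 0.971. It was 0.07 without the array labelled control replicate 3. Its value was the highest of all probe sets on 3 of the 6 arrays, at the top of the measured range.

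Fast troponin I, Tnni2, was measured by a pair of bright probe sets that ordered the arrays differently. The brighter one read 12885, 10294 and 13113 in the knockout and 12450, 12372 and 9751 in control replicates 1 to 3, lowest in the 2 arrays with high Gapdh ratios. The other read 3349, 3758 and 3396 in the knockout and 3062, 3160 and 3780 in control replicates 1 to 3, highest in those same arrays. The group differences were alike, at 0.07 ± 0.14 and 0.07 ± 0.12 on the log2 scale, with limma adjusted p of 0.971 and 0.987. The sign of the first turned with quantile normalization, where it was -0.01, and without the array labelled control replicate 3, where it was -0.05. The third probe set of Tnni2 read 38.2 to 40.7, below the background level on every array.

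**Figure D2:**
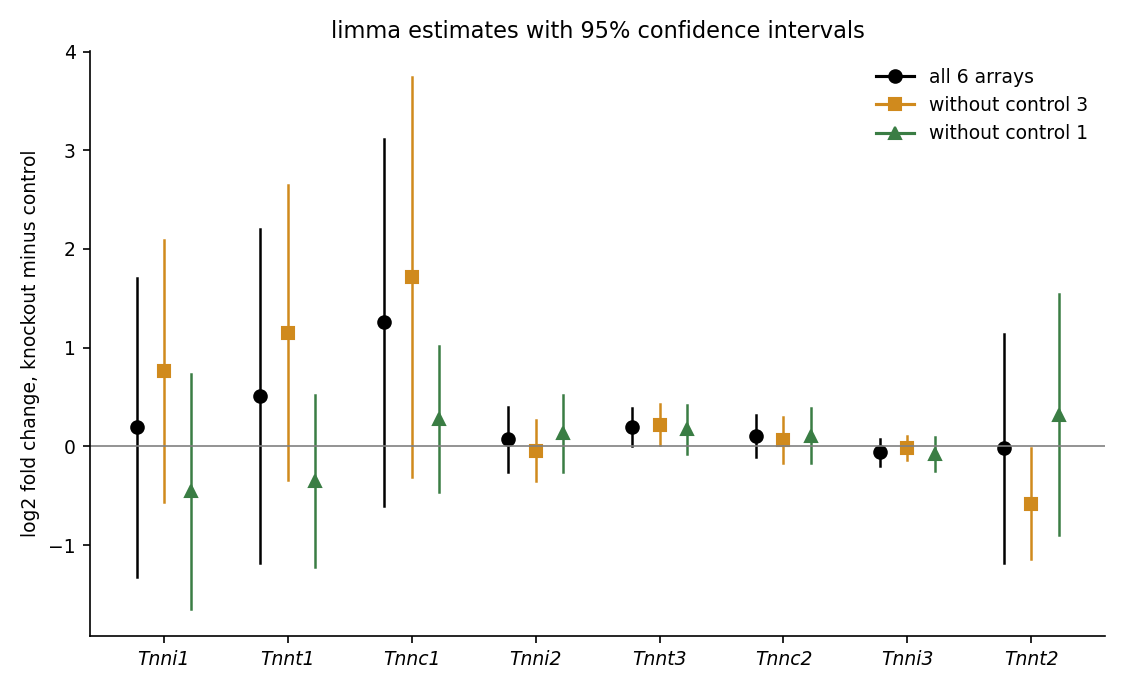
Log2 fold change of each troponin gene, knockout minus control, from limma (y axis), with 95% confidence intervals as lines, for all 6 arrays, without control replicate 3 and without control replicate 1. The intervals of the slow genes are wide and their estimates move with the array left out, whereas those of Tnni2, Tnnt3 and Tnnc2 stay within -0.05 to 0.22.

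The slow genes were set against the fast genes within each array as a log2 difference. Its absolute level reflects probe sets as well as transcripts, so only differences between arrays were read. The mean over the 3 subunits was -4.75, -3.63 and -4.72 in the knockout arrays by replicate number and -6.58, -4.41 and -3.70 in the control arrays. From low to high the order was control replicate 1, knockout replicates 1 and 3, control replicate 2, control replicate 3 and knockout replicate 2. The control values spanned 2.89 log2 units and the knockout values 1.11, both more than the difference between group means of 0.53 ± 0.94 (SE). The exact permutation p was 0.8. Without control replicate 1 the difference was -0.31, without the array labelled control replicate 3 it was 1.13, and without knockout replicate 2 it was 0.16.

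By subunit the slow minus fast difference between groups was smallest for troponin I and largest for troponin C. It was 0.12 ± 0.96 for troponin I (exact permutation p = 1), 0.31 ± 0.90 for troponin T (p = 0.9, exact) and 1.15 ± 1.04 for troponin C (p = 0.6, exact). Adjusted over these 4 values every p was 1. Control replicate 1 was the lowest array for each subunit, at -1.25, -1.95 and -2.89 from the median of the arrays for troponin I, T and C. Without that array the differences between groups were -0.59, -0.52 and 0.17 in the same order. In the male-pattern arrays alone, 2 in each group, the difference of the mean was 0.40. In the female-pattern arrays knockout replicate 2 had -3.63 and control replicate 2 had -4.41.

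**Figure D3:**
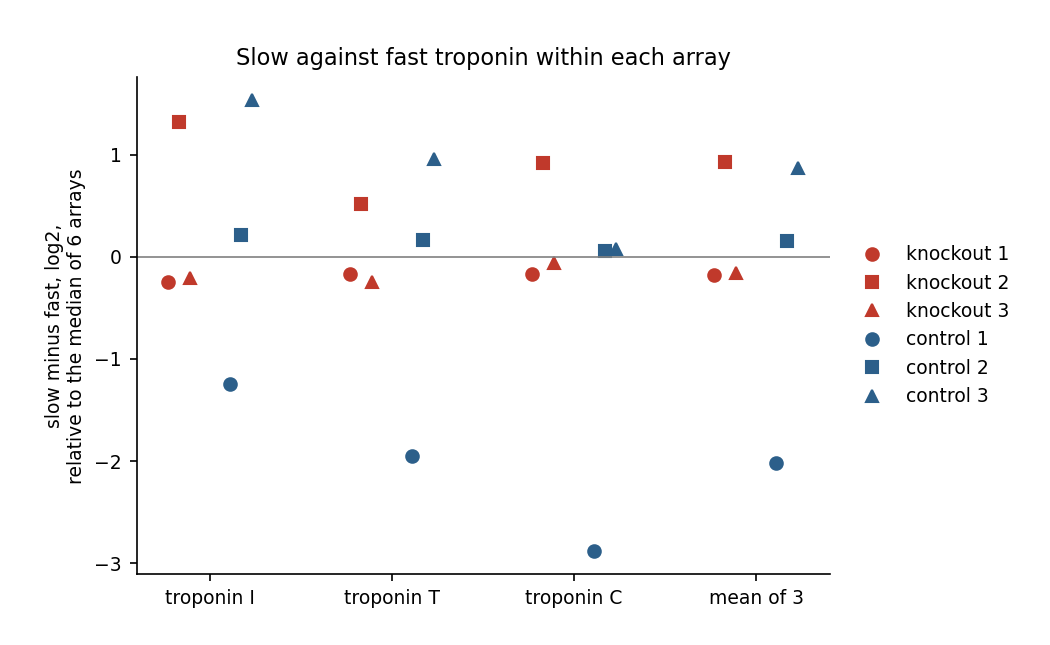
Slow minus fast log2 intensity for troponin I, T and C and their mean in each array, shown relative to the median of the 6 arrays, knockout in red and control in blue. Control replicate 1 lies lowest for every subunit, at -2.89 for troponin C, and knockout replicates 1 and 3 lie together near the median.

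The isoforms known from heart behaved unlike each other. Cardiac troponin I, Tnni3, read 40.4 to 47.7 and lay below the background level in all 6 arrays, so no fold change was read from it. Cardiac troponin T, Tnnt2, which is also made in developing skeletal muscle, was above that level in 5 arrays. Its intensity was 191.2, 177.3 and 124.6 in the knockout and 260.8, 224.3 and 74.8 in control replicates 1 to 3. Control replicates 1 and 2 lay above all knockout values, and the array labelled control replicate 3 lay below them. The log2 fold change was -0.02 ± 0.49 (95% interval -1.18 to 1.14), with a limma adjusted p of 0.998. When the array labelled control replicate 3 was left out it was -0.58 ± 0.23, or 1.50-fold lower in the knockout, with a limma adjusted p of 0.802 and an exact permutation p of 0.2. In that comparison 14.2% of all genes were lower without overlap. A second probe set of Tnnt2 had the same order of the groups, at 153.7, 107.4 and 91.9 in the knockout and 183.8, 182.8 and 58.8 in control replicates 1 to 3. The third read 39.0 to 42.6, below background.

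Heart markers were near background beside these genes. Of 10 heart genes, Myl4 and Sln, which skeletal muscle can also express, were above the background level on average, and the defining genes Myh6, Nppa and Mybpc3 read 42.98 to 81.6 in every array. The summed heart list ran from 647.0 to 1293 in the knockout and from 687.8 to 1287 in the control. Most of that spread came from Myl4 and Sln. Of 7 markers of developing fibres 2 had higher and 5 lower values, with a median log2 fold change of -0.22 and ranges of the summed level of 6519 to 10350 and 7210 to 9589. Most of that sum was the actin Actc1, at 5445 to 8361, so the sum mainly followed this gene. When the array labelled control replicate 3 was left out 3 of these 7 genes were higher, with a median of -0.16, and 3 of the 10 heart genes were higher, against 1 with all arrays. Over all genes 8734 of 18194 were then higher, against 8418 with all arrays. Most of the heart list lay below the background level, so no direction was read from its counts. Embryonic myosin, Myh3, read 266.4, 156.5 and 63.9 in the knockout and 230.8, 146.6 and 358.4 in control replicates 1 to 3. The part of these cells in the Tnnt2 values was not tested.

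Other slow-fibre genes were split in direction over the 6 arrays. Of 19 measured, 10 had higher and 9 lower values in the knockout, 0 passed the test, and the median log2 fold change was 0.03. Of the 19, 16 were above background, and the median over all 8638 genes above background was 0.03 as well, with 4697 of them higher. Without control replicate 1 only 4 of the 19 slow-fibre genes were higher, with a median of -0.08, against 5031 of 8638 and 0.07 among the genes above background. With the array labelled control replicate 3 left out it was 11 of 19 with a median of 0.10, against 3119 of 8638 and -0.07. Of these 19 genes 9 had their lowest value in control replicate 1, the array that was lowest for 12.2% of all genes. Of 18 fast-fibre genes 7 were lowest there too, so the rank alone was not particular to slow-fibre genes. The size differed. In control replicate 1 the median log2 value, relative to each gene's mean, was -0.29 over the slow-fibre list and -0.04 over the fast-fibre list. Slow myosin heavy chain, Myh7, read 1114, 2423 and 1144 in the knockout and 85.9, 1192 and 3091 in control replicates 1 to 3. Its low array was control replicate 1, as for the slow troponins, and its high array was control replicate 3. The light chains Myl2 and Myl3 read 171.3 and 176.1 in control replicate 1 and at least 1374 and 1476 elsewhere. Slow tropomyosin, Tpm3, did not share this, at 1336 in control replicate 1. The list members with the smallest p were Myl6b and the stretch-responsive Ankrd2 (limma adjusted p = 0.971 for both). Myl6b read 62.7 to 77.0 in the knockout and 83.7 to 131.6 in the control and was above background on 1 array, so no fold change was read from it. Ankrd2 had a log2 fold change of -0.49 ± 0.28, and -0.32 without the array labelled control replicate 3.

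The genes whose arrays followed the mean of the slow troponins most closely were ranked by the root mean square difference of centred log2 values over 6 arrays, among 8631 genes above background. The 8 nearest were Asb15, a substrate adaptor of ubiquitin ligases, at 0.42, Myl2 at 0.43, Ell, a transcription elongation factor, at 0.48, Calr3 at 0.54, Myl3 and the slow Z-disc gene Myoz2 at 0.56, Rai2 at 0.57 and Acss2, an acetyl-CoA synthetase, at 0.59. Among the slow troponins themselves the difference was 0.30 between Tnni1 and Tnnt1, 0.49 between Tnnt1 and Tnnc1 and 0.72 between Tnni1 and Tnnc1, and the median over the ranked genes was 1.04. The slow calcium pump Atp2a2 was in place 14 and Myh7, with a wider range of 5.17 log2 units, in place 98. The measure counts the size of a swing as well as its order, and a flat profile would lie at 0.96. Without the array labelled control replicate 3 only 2 of the 8, Asb15 and Myl2, were still among the nearest 8.

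**Figure D4:**
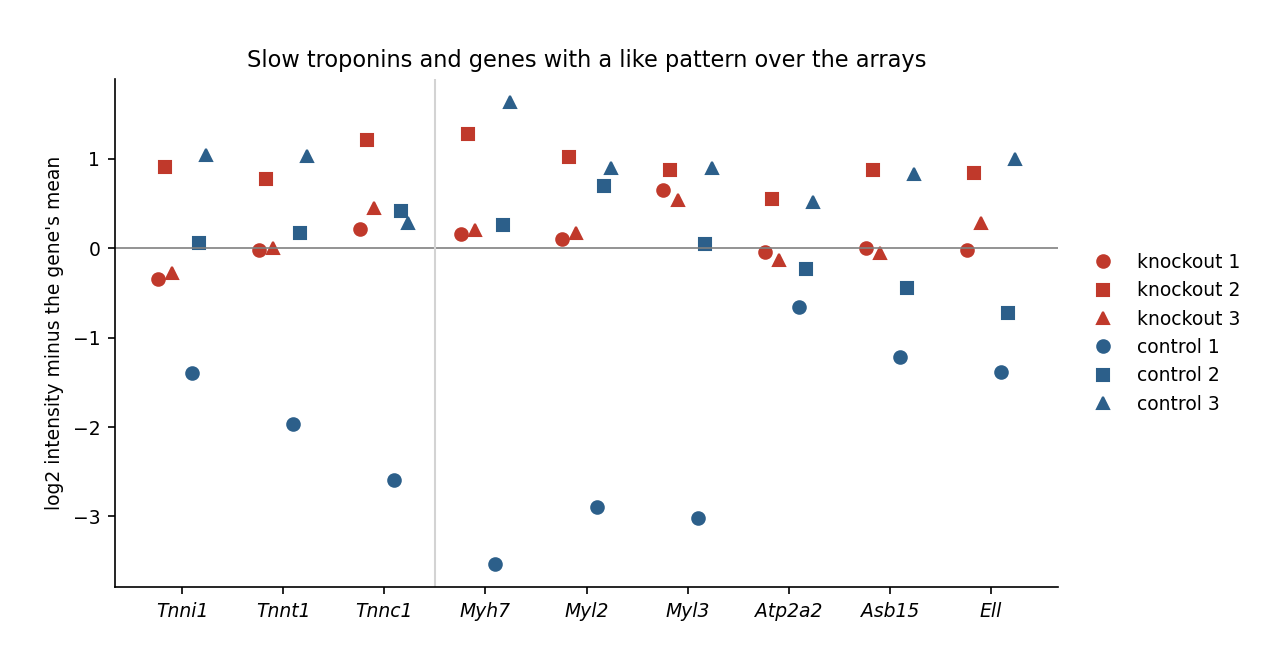
Log2 intensity minus the gene's own mean over the 6 arrays, for the slow troponins and for Myh7, Myl2, Myl3, Atp2a2, Asb15 and Ell, knockout in red and control in blue. Control replicate 1 is the lowest point of all 9 genes.

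Fast-fibre genes mostly had small higher values in the knockout. Of 18 measured, 16 had higher and 2 lower values, 0 passed, and the median log2 fold change was 0.07, against 0.03 over the 8638 genes above background. Without the array labelled control replicate 3 the median was 0.04, with 13 of 18 higher, and the genes above background then had a median of -0.07 with 3119 of 8638 higher. Without control replicate 1 the fast-fibre median was 0.035, with 13 of 18 higher. This was below the median of 0.07 of the genes above background, of which 5031 of 8638 were then higher. The fast myosin heavy chain Myh4 had 0.13 ± 0.08 and the fast light chain Myl1 had 0.10 ± 0.07, both without overlap between the groups (limma adjusted p = 0.971), as for 9.01% of all genes. Their values were 0.12 and 0.11 without the array labelled control replicate 3.

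No partner of troponin on the thin filament passed the test. The tropomyosins Tpm1 and Tpm2, which troponin T binds, had log2 fold changes of 0.11 ± 0.15 and -2.85e-05 ± 0.14, and Tpm3 had 0.09 ± 0.22. These were -0.02, 0.13 and -0.13 without the array labelled control replicate 3. Skeletal actin, Acta1, had 0.13 ± 0.08 without overlap between the groups, and cardiac actin, Actc1, had -0.07 ± 0.19. They had 0.10 and -0.20 without that array. Of 15 thin filament genes 9 had higher and 6 lower values, 0 passed, and the median was 0.05. The median was -0.10, with 5 of 15 higher, when the array labelled control replicate 3 was left out, near the -0.07 and 3119 of 8638 of the genes above background. The actin-severing gene Cfl2 had the smallest p of the list, with 0.23 ± 0.12 (limma adjusted p = 0.971), also without overlap, and 0.19 without that array. Over all genes 3.33% lay higher in the knockout without overlap.

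Of 27 regulators of fibre type measured, 14 were higher and 13 lower over the 6 arrays, with a median log2 fold change of 0.03 and 0 past the test. Without the array labelled control replicate 3, 10 of 27 were higher and the median was -0.05, again close to the genes above background. Nfatc2, a calcineurin-dependent factor, read 289.6, 331.4 and 231.0 in the knockout and 168.4, 175.4 and 97.3 in control replicates 1 to 3. All knockout values lay above all control values, with a log2 fold change of 0.98 ± 0.30. The value of control replicate 3 was under the background level. Mef2d, a MADS-box factor of muscle, had 0.41 ± 0.14, also without overlap, as for 3.33% of all genes in that direction. Both had a limma adjusted p of 0.971. They had 0.71 and 0.42 without the array labelled control replicate 3.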

How the data were processed

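The authors deposited 1 intensity per probe set and array, on a linear scale as its range of 37.2 to 16069 shows. GCOS and RMA are named in the submitters' processing notes, with versions and normalization not given in the sources used here, so any compression of the brightest probe sets is unknown. Of 45101 probe sets, 34958 had 1 gene symbol, 932 several and 9211 none in the platform annotation, and 34754 matched RefSeq (GRCm38.p6) by Entrez identifier. The brightest single-gene probe set stood for each of 18194 genes. Their log2 values, without a pseudocount, entered limma 3.58.1 under R 4.3.3 (lmFit, then eBayes with trend) with genotype as the only factor. Tests were two-sided and adjusted by Benjamini-Hochberg across all 18194 genes, at a threshold of 0.05. Single values per array were tested by exact permutation over samples. The fit was tested on simulated data. Since the labels name no separate animals, p-values cover the spread of these arrays only, which may be technical, and their number limits the precision.

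Titles gave each sample's genotype. The background level was the 95th percentile over genes listed as restricted to other tissues. Named genes were the members, the 2 smallest p of the fibre, thin filament and regulator lists, tropomyosins and actins, and the 8 genes of nearest pattern. Of the marker lists, only the heart and developing-fibre lists were used. Myh7, Atp2a2, Myh3 and the heart markers were named after their values were seen. Members and lists were chosen with earlier results of these data known. Alternatives were the replicate block, other scalings, variance models, filters, probe set rules and covariates, and arrays left out.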

Additional observations from a re-analysis of the deposited data

How the results depend on the processing

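No gene passed the threshold in limma under any of 19 alternatives, though with array weights the lowest adjusted p was 0.0579 and 1854 genes had an unadjusted p under 0.05. With all arrays weighted alike 469 genes had one in limma, and 615 had it without moderation of the variances, where 0 passed adjustment. Without control replicate 3 these were 1090 and 1003, and 2 genes passed adjustment without moderation. With 3 arrays per group, differences of the size seen in the slow genes were within the spread.

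With the arrays of male pattern only, chosen after seeing the data, the sign turned for Tnni1 (-0.14), Tnnt2 (0.14) and the slow minus fast difference of troponin I (-0.37). Tnni2 turned with quantile normalization (-0.013) and with the Gapdh ratio as a covariate (-0.022). Leaving out 1 array at a time gave log2 fold changes of -0.46 to 0.76 for Tnni1, -0.35 to 1.15 for Tnnt1, -0.045 to 0.18 for Tnni2 and -0.58 to 0.32 for Tnnt2. The slow minus fast difference then ran from -0.31 to 1.13 for the mean, -0.59 to 0.81 for troponin I and -0.52 to 0.93 for troponin T. Tnni1 turned without control replicate 1 (-0.46) or knockout replicate 2 (-0.21), and Tnnt1, the mean index and the troponin T difference turned without control replicate 1 alone. The troponin I difference turned without control replicate 1 or knockout replicate 2 (-0.40). Tnnt2 turned when control replicate 1 (0.32) or 2 (0.21) or knockout replicate 3 (0.17) was left out, and Tnni2 without control replicate 3. The cause was not tested. Tnnc1, Tnnt3, Tnnc2, Tnni3 and the troponin C difference kept their direction under every alternative run. Tnni3 lay below the background level in all 6 arrays, so its direction was not read. As 1 array was left out, Tnnc1 had 0.27 to 1.78 and the troponin C difference 0.17 to 1.65. Some alternatives cannot move these estimates, such as the replicate block, the sex pattern as a covariate and the fit without a variance trend.

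Whether the replicate numbers shared by the groups pair the samples could not be told. Deviations of same-numbered arrays correlated at 0.19, -0.15 and -0.11, and those of other pairs at -0.22 to 0.22. With 3 arrays per group such correlations cannot decide this. The female pattern fell on replicate 2 of both groups. With the replicate number as a block 0 genes passed, as without it. The slow minus fast difference stayed at 0.53, which was fixed in advance because every number occurs in both groups. The variance model and single probe sets gave no value for the slow minus fast differences, and the filter on dim genes none for Tnni3. Only Tnni2 and Tnnt2 had a second probe set.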

Other observations

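Without the array labelled control replicate 3, the gene nearest in pattern to the slow troponins was not a fibre gene but Fasn, fatty acid synthase, at a root mean square log2 difference of 0.34. It read 446.2, 875.1 and 722.7 in the knockout and 164.7, 430.0 and 208.2 in control replicates 1 to 3. Elovl6, a fatty acid elongase, came next at 0.35, and the carrier gene Slc25a25 followed at 0.40. Elovl6 read 79.5 in control replicate 1 and 49.8 in control replicate 3, both under the background level. With all 6 arrays these genes stood in places 433, 6080 and 262 of 8631. For all 3 genes the lowest pair of arrays was control replicates 1 and 3, as labelled, whereas Tnni1 and Tnnt1 were high in the latter.

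Myl4, an embryonic and atrial light chain, read 754.3 in knockout replicate 1, 237.6 and 206.1 in the other knockout arrays and 458.7, 531.1 and 237.6 in control replicates 1 to 3. Its high array was not one of the high arrays of the slow troponins. These genes were chosen after their values were seen.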
